A study of Homo sapiens with 6 samples.

Results

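The lysosomal hydrolases described here are 9 genes whose enzymes take apart the sugar chains of glycoproteins and glycolipids (*GLA*, *GLB1*, *HEXA*, *GALC*, *MAN2B1*, *MANBA*, *FUCA1* and *AGA*) or glycogen (*GAA*). They were chosen by name, and each was found through the RefSeq accession in its probe set identifier, with 1 probe set per gene, so 9 of the 927 named genes and of the 1259 probe sets in the table. Arrays measured expression in RKO, a colon carcinoma cell line in long use, as 2 populations. RKO C2 is a clonal population of RKO, and RKO C2 F3 was derived from RKO C2 by sorting for low u-PAR, the urokinase receptor, so both carry the background of the same clone. Each had 3 arrays, numbered 1 to 3 in both. The labels call F3 clonal in 1 place and a population in another, name no treatment, and leave unsaid whether replicate arrays stand for separate cultures. Their titles end the short array name with a suffix that is the same for both arrays of a number and differs between numbers, and the labels do not say what it marks. A p-value therefore reflects only array-to-array spread, possibly technical. The comparison asked which enzyme of glycosylation F3 lacks, in cells where u-PAR matures incompletely.

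Lysosomal hydrolases are themselves N-glycoproteins. They are made in the endoplasmic reticulum, receive mannose 6-phosphate on their N-glycans in the Golgi, and are carried to the lysosome by mannose 6-phosphate receptors. Exoglycosidases then remove 1 sugar after another from the chain end, so that loss of a single enzyme leaves its substrate stored. Inherited loss of each of these 9 causes a storage disease, such as Fabry disease for *GLA*, Tay-Sachs disease for *HEXA*, Krabbe disease for *GALC* and Pompe disease for *GAA*.

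Of the 9 hydrolases, 0 rose, 0 fell and 9 did not pass the test (limma, two-sided, Benjamini-Hochberg adjusted p under 0.05 over all 1259 probe sets). Over all probe sets 1, or 0.0794%, passed, which was *PIGB* of glycosylphosphatidylinositol anchor synthesis, lower in F3. At an unadjusted p under 0.05 the count was 0 of 9 hydrolases, against 68 probe sets, or 5.4%, in all. The C2 and F3 arrays overlapped for each of the 9, and over all probe sets 130, or 10.3%, had no overlap. Beside that share, 0 of 9 does not set the hydrolases apart. The log2 change, F3 minus C2, was negative for 7 hydrolases and positive for 2, *HEXA* and *GAA*, and over all probe sets it was negative for 688 of 1259. The median change of the 9 was -0.11, against -0.0064 over all probe sets. That median rested in part on the arrays numbered 2: it was -0.037 without C2 replicate 2 and -0.021 without both arrays of that number. With every array kept, it also varied with scaling, at -0.090 after median centring and -0.044 after repeated quantile normalization. Each of the 9 95% intervals held 0, and none reached further than 1.33-fold lower (*MANBA*) or 1.26-fold higher (*GAA*) in F3. The plot of expression by array shows these values gene by gene.

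**Figure D1:**
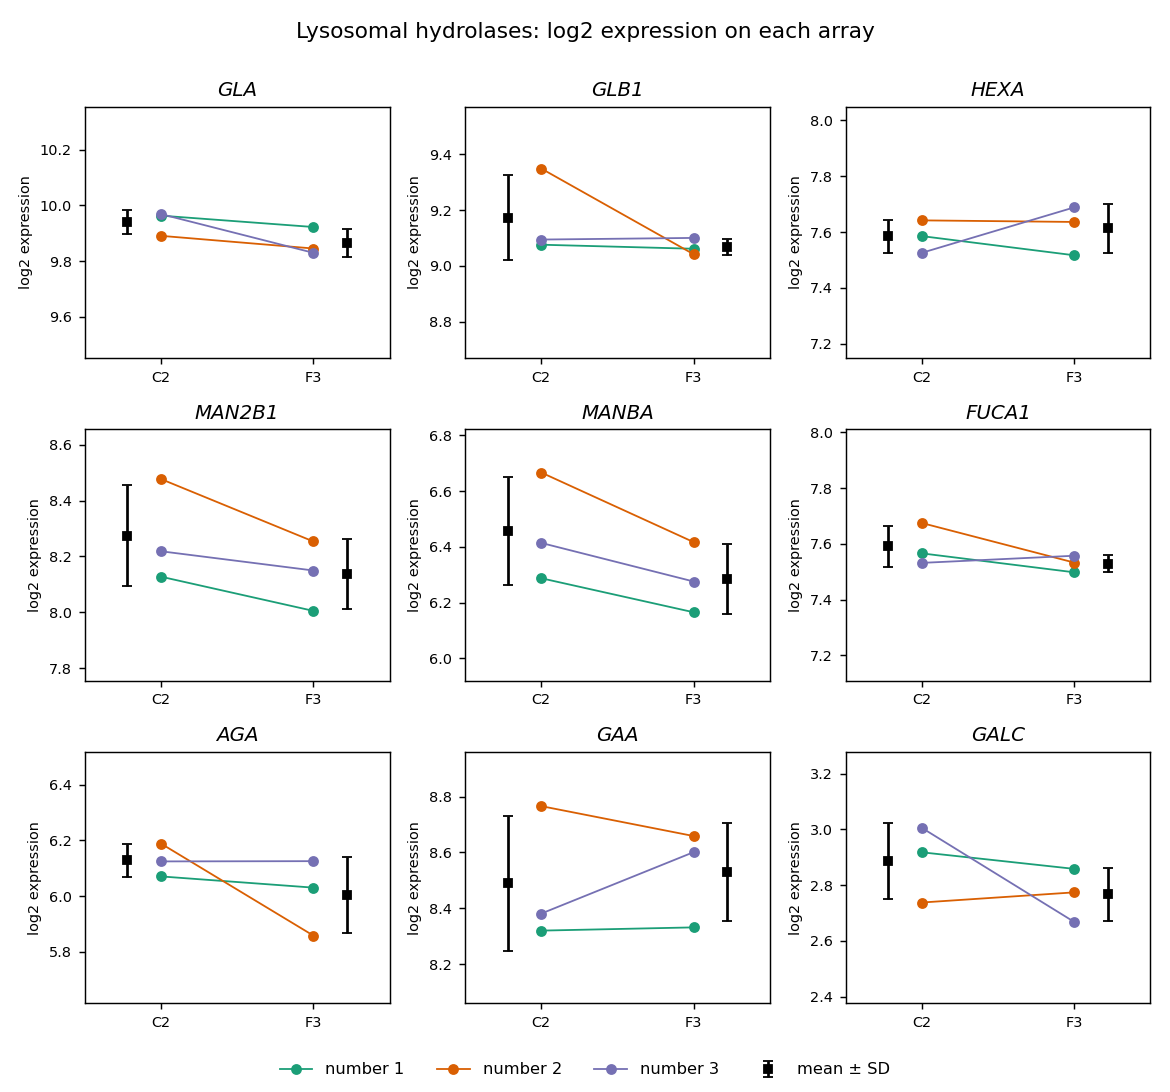
Log2 expression (vertical axis, each panel spanning the same log2 distance) of the 9 hydrolases in C2 and F3. Points are arrays, lines join arrays of the same number, and black squares with bars are the mean and SD of 3 arrays. The C2 and F3 points overlap in every panel, and *GLA*, *MAN2B1* and *MANBA* have all 3 lines sloping down from C2 to F3.

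The first role is the breakdown of glycoprotein N-glycans, with 4 hydrolases, all with a negative change (-0.17 to -0.061, median -0.13). Over all probe sets 54.6% had a negative change. Each gene was placed under 1 role only, although some of these enzymes act on more than 1 kind of chain. The signs by role thus depend on that placing. *MANBA* encodes lysosomal beta-mannosidase, which splits the last mannose from the N-glycan core stub. Its log2 expression was 6.29, 6.67 and 6.41 on C2 arrays 1, 2 and 3 and 6.17, 6.42 and 6.28 on the F3 arrays. C2 replicate 2 was the highest and F3 replicate 1 the lowest, and F3 replicate 2 lay above 2 of the C2 arrays. The mean was 6.46 ± 0.19 (SD, n = 3) in C2 and 6.29 ± 0.13 (SD, n = 3) in F3, a log2 change of -0.17 (SE 0.10, 95% interval -0.41 to 0.067, limma adjusted p = 0.966). This was the largest change among the 9. In same-numbered arrays F3 differed from C2 by -0.12, -0.25 and -0.14, so it was lower in each of the 3 pairs.

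*MAN2B1* encodes lysosomal alpha-mannosidase, which removes the alpha-linked mannoses before beta-mannosidase acts. It read 8.13, 8.48 and 8.22 in C2 and 8.005, 8.25 and 8.15 in F3. The order of the numbers was that of *MANBA*, with number 2 highest and number 1 lowest in both populations. Over all probe sets, number 2 was highest in both populations for 16.2% and number 1 lowest in both for 24.3%. The log2 change was -0.14 (SE 0.10, 95% interval -0.37 to 0.090, limma adjusted p = 0.974), and the pairs differed by -0.12, -0.22 and -0.069. With the replicate number as a block, which compares arrays within pairs, the SE fell to 0.052 for *MANBA* and 0.053 for *MAN2B1*. The blocked intervals were -0.30 to -0.044 and -0.27 to -0.0096, with unadjusted limma p-values of 0.016 and 0.039. The block thus put 2 of the 9 hydrolases under an unadjusted p of 0.05, against 101 probe sets, or 8.02%, in all, and neither passed after adjustment (limma adjusted p = 0.52 and 0.56; 0.159% of all probe sets passed). The unblocked changes were -0.065 for *MANBA* and -0.037 for *MAN2B1* without C2 replicate 2, and -0.25 and -0.21 without C2 replicate 1. With single arrays left out, 1 hydrolase was under an unadjusted limma p of 0.05 in 3 of the 6 fits: *MANBA* without C2 replicate 1 (68 probe sets in all), *GALC* without C2 replicate 2 (69) and *AGA* without F3 replicate 3 (69).

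*FUCA1* encodes the lysosomal alpha-L-fucosidase, which removes fucose from N-glycans and other fucosylated chains. It read 7.57, 7.67 and 7.53 in C2 and 7.50, 7.53 and 7.56 in F3. C2 replicate 2 stood highest and the other 5 arrays lay close together. The log2 change was -0.061 (95% interval -0.19 to 0.069, limma adjusted p = 0.974), and ran from -0.091 without C2 replicate 3 to -0.019 without C2 replicate 2. *AGA* encodes aspartylglucosaminidase, which cuts the bond between the asparagine and the first GlcNAc. It read 6.07, 6.19 and 6.12 in C2 and 6.03, 5.86 and 6.13 in F3. F3 replicate 2 was the lowest of the 6, while F3 replicate 3 lay level with C2 replicate 3. The log2 change of -0.12 (95% interval -0.30 to 0.050, limma adjusted p = 0.966) became -0.050 without F3 replicate 2 and -0.18 without F3 replicate 3.

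The second role is the breakdown of glycosphingolipids, with 4 hydrolases, 3 of them with a negative change (-0.12 to 0.030, median -0.090). *GLA* encodes alpha-galactosidase A, which cleaves globotriaosylceramide. It read 9.96, 9.89 and 9.97 in C2 and 9.92, 9.85 and 9.83 in F3. Its pooled within-population SD, 0.047, was the smallest of the 9 genes, with SDs of 0.043 in C2 and 0.050 in F3. The F3 SDs of *FUCA1* and *GLB1*, both 0.030, were smaller. For *GLA*, F3 replicate 1 fell above C2 replicate 2. The log2 change of *GLA* was -0.075 (SE 0.054, 95% interval -0.20 to 0.048, limma adjusted p = 0.974), with pairs at -0.041, -0.045 and -0.14. *GLA*, *MAN2B1* and *MANBA* were the 3 of 9 that were lower in every pair, as were 224 probe sets, or 17.8%, of all. *GLB1* encodes the beta-galactosidase that acts on GM1 ganglioside and keratan sulfate. It read 9.08, 9.35 and 9.09 in C2 and 9.06, 9.04 and 9.10 in F3. Here 5 of the 6 arrays lay between 9.04 and 9.10, and C2 replicate 2 alone stood above them. The log2 change of -0.11 (95% interval -0.28 to 0.073, limma adjusted p = 0.974) was -0.017 without that array and -0.15 without C2 replicate 1.

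*HEXA* encodes the alpha subunit of beta-hexosaminidase A, which acts on GM2 ganglioside. It read 7.59, 7.64 and 7.53 in C2 and 7.52, 7.64 and 7.69 in F3. The highest and the lowest array were both F3 arrays, numbers 3 and 1. The log2 change was 0.030 (95% interval -0.12 to 0.17, limma adjusted p = 0.998), and it turned to -0.0078 without F3 replicate 3. *GALC* encodes galactosylceramidase, which degrades the galactolipids of myelin. It read 2.92, 2.74 and 3.01 in C2 and 2.86, 2.77 and 2.67 in F3, the only one of the 9 below the 25th percentile of mean level over all probe sets (3.80). C2 replicate 3 was the highest, F3 replicate 3 the lowest, and the other 4 arrays of both populations intermingled. The log2 change was -0.12 (95% interval -0.31 to 0.067, limma adjusted p = 0.966), and -0.19 without C2 replicate 2 and -0.061 without C2 replicate 3. The values come with no detection call, so whether *GALC* lay above background on these arrays is unknown. Levels of different probe sets depend on their probes, so that percentile is only a rough mark of dimness, and the levels of the 9 genes were not compared with each other.

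The third role, glycogen, belongs to *GAA*, the acid alpha-glucosidase that frees glucose inside the lysosome. It read 8.32, 8.77 and 8.38 in C2 and 8.33, 8.66 and 8.60 in F3. Number 2 was highest and number 1 lowest in both populations, and the C2 arrays alone spanned 0.45 on the log2 scale. The mean was 8.49 ± 0.24 (SD, n = 3) in C2 and 8.53 ± 0.17 (SD, n = 3) in F3, a log2 change of 0.042 (SE 0.13, 95% interval -0.25 to 0.34, limma adjusted p = 0.998). The change was 0.18 without C2 replicate 2 and turned negative without C2 replicate 1 (-0.043), C2 replicate 3 (-0.012) or F3 replicate 2 (-0.023). The pooled within-population SD of *GAA*, 0.21, stood at percentile 97.9 of all probe sets, against percentile 15.2 for *GLA* at 0.047. The plot of changes sets these intervals side by side.

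**Figure D2:**
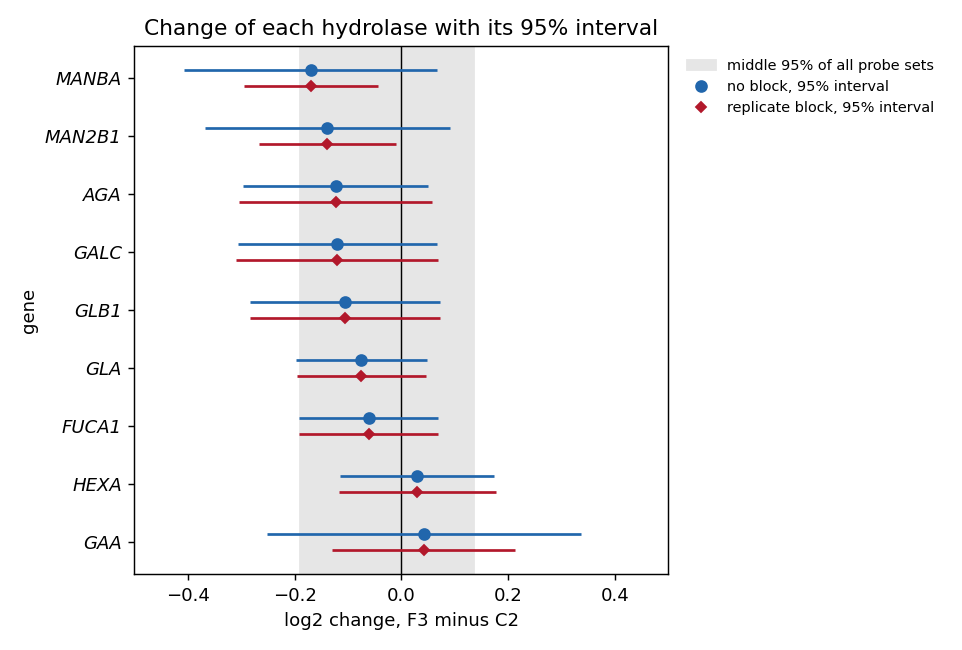
Log2 change, F3 minus C2 (horizontal axis), of each hydrolase with its 95% interval from limma without a block (blue circles) and with the replicate number as a block (red diamonds). The grey band holds the middle 95% of changes over all 1259 probe sets. All 9 points lie inside the band, *GAA* has the widest unblocked interval (-0.25 to 0.34), and the blocked intervals of *MANBA* and *MAN2B1* end below 0.

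Transcription of many lysosomal genes is known to be driven by TFEB and its relatives through the CLEAR element, a palindrome around the E-box CACGTG. RefSeq promoter entries (GRCh38.p14) matched 7 of the 9 genes, all but *HEXA* and *MANBA*. In 3 genes number 2 was highest and number 1 lowest in both populations (*GAA*, *MAN2B1* and *MANBA*). Over all probe sets the former held for 16.2% and the latter for 24.3%. Of these 3 genes *GAA* and *MAN2B1* had an entry. The 100 bases before their annotated starts are shown with the motifs found there. Whether the array order of these genes has to do with their promoters was not tested. The *GAA* stretch is chr17:80101481-80101580 on the plus strand, and the *MAN2B1* stretch is chr19:12666743-12666842 on the minus strand. Capitals mark, in both and on either strand, the E-box with the 2 bases that flank it on each side in *GAA* (GTCACGTGAC), CCAAT and GGGCGG.
GAA: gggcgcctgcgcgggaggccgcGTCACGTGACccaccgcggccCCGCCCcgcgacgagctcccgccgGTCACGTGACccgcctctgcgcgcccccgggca
MAN2B1: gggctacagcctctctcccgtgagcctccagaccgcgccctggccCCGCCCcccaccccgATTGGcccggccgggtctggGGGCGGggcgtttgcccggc
The *GAA* stretch holds this palindrome, GTCACGTGAC, at 2 places, starting 78 and 33 bases before the start, and GGGCGG once, on the other strand. In the 250 bases before the start, GTCACGTGAC was found in *GAA* alone of the 7 genes and in 0.308% of 35116 RefSeq promoter entries. This string was read from *GAA* itself, so its match there was fixed in advance and does not set *GAA* apart. Only exact matches were searched, so genes without one may hold other forms of the CLEAR element. CACGTG, which it contains, was found again in *GAA* alone and in 6.34% of entries. CCAAT was found in 4 genes (*AGA*, *FUCA1*, *GLA* and *MAN2B1*) and 32% of entries, and GGGCGG in all 7 and 42.6%. A gene was counted if any of its entries held the motif, while the percentages are over single entries, so the 2 are unlike measures. Both strands were searched, and a match is a description of the sequence only.

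Single arrays moved several hydrolases at once. C2 replicate 2 was the highest C2 array for 7 of the 9 (all but *GLA* and *GALC*), as for 42.2% of all probe sets, and the highest of all 6 arrays for 6 of the 9, as for 26.1%. It exceeded the mean of the other C2 arrays by 0.42 for *GAA*, 0.32 for *MANBA*, 0.30 for *MAN2B1* and 0.26 for *GLB1* on the log2 scale. Across the 9 genes its median deviation from the gene's mean was 0.12, against 0.012 over all probe sets. F3 replicate 1 had the lowest such median, -0.062, and was the lowest array for 4 of the 9, as for 26% of all probe sets. By pair, the median F3 minus C2 difference of the 9 was -0.059 for number 1, -0.14 for number 2 and 0.00089 for number 3, against -0.014, -0.0075 and -0.00069 over all probe sets. Of the 9 differences, 8 were negative for number 1, 8 for number 2 and 4 for number 3, as were 55.4%, 53.7% and 50% of those over all probe sets. The map of deviations shows the column of C2 replicate 2.

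**Figure D3:**
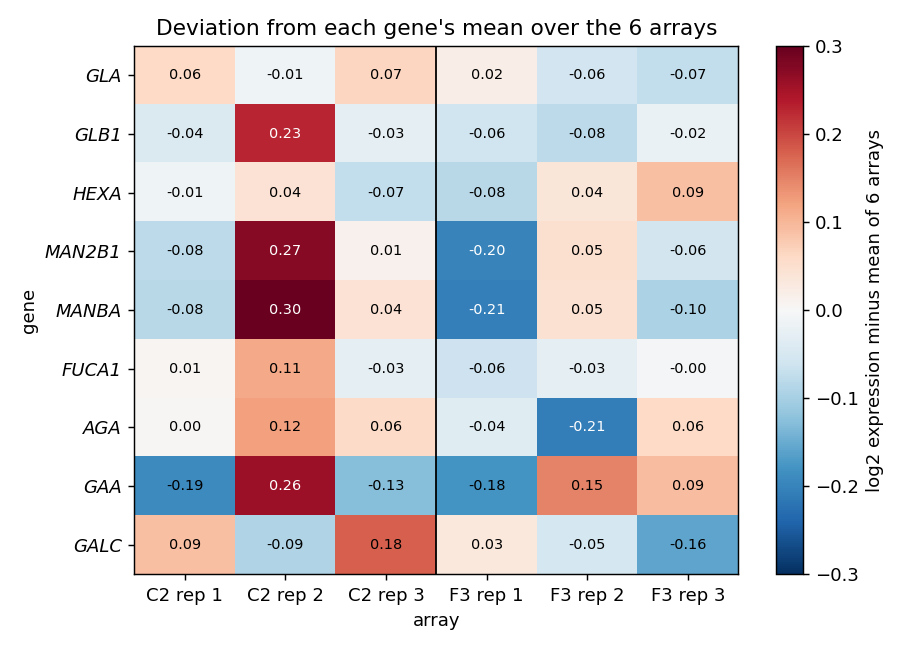
Log2 expression of each hydrolase (rows) on each array (columns) minus the mean of that gene over the 6 arrays, with red above and blue below the mean. C2 replicate 2 is red for 7 of the 9 genes. *GAA*, *MAN2B1* and *MANBA* have their lowest value of each population on replicate 1, as have 24.3% of all probe sets.

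*MANBA* had the smallest unadjusted p of the 9. Among the 1258 other probe sets, the one whose log2 values followed it most closely over the 6 arrays was *MAN2B1* itself (Pearson r = 0.993), the alpha-mannosidase that acts before it on the same chains. Next came *HK1*, encoding hexokinase (r = 0.981), and 1 of the several probe sets of *HGF*, encoding hepatocyte growth factor (r = 0.979). Without C2 replicate 2 the values were 0.975, 0.981 and 0.930. These were picked as the highest of 1258, and the arrays share the population difference, the numbering and the normalization, so r is given as a description.

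Partners and neighbours in the pathway also held no gene past the threshold. The list of other genes for lysosomal breakdown of glycoproteins and glycolipids had 11 of its 16 symbols measured, with 0 higher, 0 lower and a median change of -0.0064. *GM2A*, the activator that presents GM2 to hexosaminidase A, was at -0.068 (95% interval -0.24 to 0.10, limma adjusted p = 0.998). *NEU4*, a sialidase, was at 0.072. *CTSA* and *NEU1*, whose products form a complex with the *GLB1* enzyme, were looked up for that reason after values had been seen. *CTSA* was at -0.049 (95% interval -0.26 to 0.16), and the 2 probe sets of *NEU1* were at 0.030 and -0.025.

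The glycosaminoglycan hydrolases had 14 of 18 symbols measured, 0 past the threshold in either direction, 9 negative changes and a median of -0.041. *GUSB*, beta-glucuronidase, was at -0.15 (95% interval -0.28 to -0.023, limma adjusted p = 0.837), and *IDS*, iduronate-2-sulfatase, at -0.28 with its other probe set at -0.021. *IDUA*, alpha-L-iduronidase, was at 0.090 and *SGSH*, a heparan sulfamidase, at -0.069. Of the mannose 6-phosphate system 1 of 5 symbols was measured, the receptor gene *IGF2R*, at -0.46 (95% interval -0.70 to -0.23, limma adjusted p = 0.358). Lysosomal membrane and other lysosomal genes (4 of 16 measured, 0 past the threshold, median -0.069) comprised *MCOLN1*, a calcium channel, at -0.11, the membrane glycoproteins *LAMP1* at -0.073 and *LAMP2* at -0.065, and acid lipase, *LIPA*, at 0.039. Glycosidases of other compartments (10 of 23 measured, 0 past the threshold, median -0.012) were led by the Golgi mannosidase *MAN2A2* at -0.17, then *LCT* (lactase) at -0.058, *OGA* (which removes O-GlcNAc) at -0.049 and *MAN1A2* at -0.056. The plot by list shows every measured gene.

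**Figure D4:**
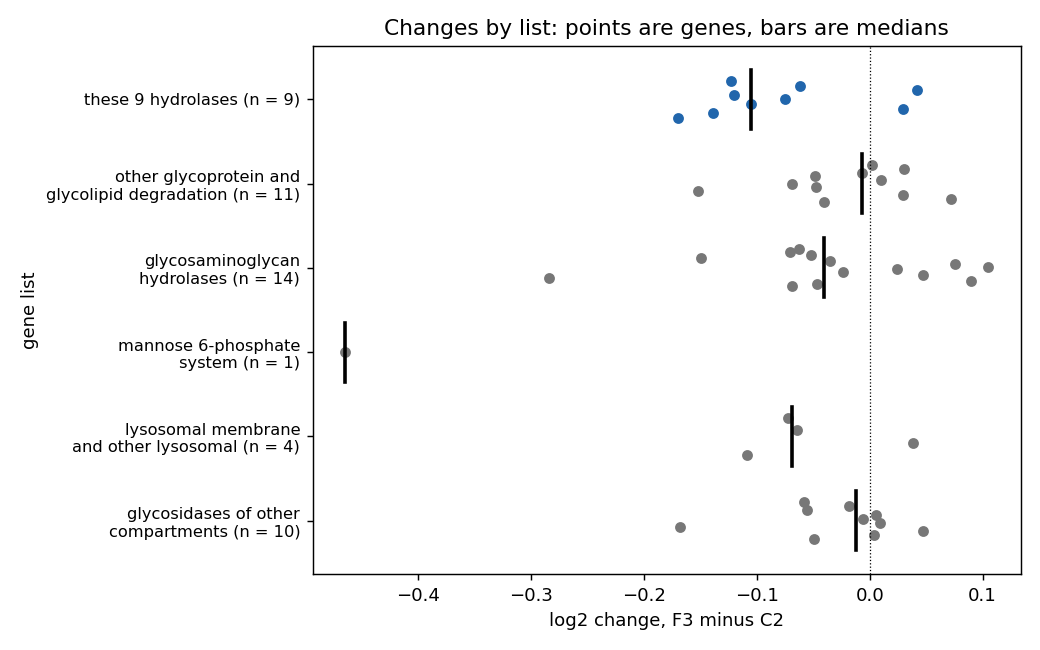
Log2 change, F3 minus C2 (horizontal axis), of each measured gene (points) in 6 lists (rows), with the list's median as a black bar and 1 probe set per gene. The 9 hydrolases (blue) have a median of -0.11 and lie between -0.17 and 0.042, and *IGF2R*, alone in its list, lies at -0.46.

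Across the series, median log2 expression was 5.48 to 5.51 on the 6 arrays, pairs of arrays correlated over probe sets with r from 0.998 to 0.999, and the median within-population SD was 0.083. The number of arrays limits the precision. Of 12 colon epithelial markers 2 were measured, *MUC2* (log2 5.12 in C2, change 0.027) and *LGALS4* (4.74, change -0.051), without a detection call to say whether either was present. Of 13 leukocyte markers 7 were measured, and their summed log2 level was 28.5 to 28.9 in C2 and 28.7 to 29.0 in F3. Among them *CD72*, at 0.23, *CLEC4D* at -0.14, *CD22* at 0.086 and *CD33* at -0.063 had the smallest p. Of 12 fibroblast and endothelial markers 7 were measured, with sums of 24.7 to 25.2 in C2 and 24.3 to 24.7 in F3. *ICAM2* (-0.20), *PDGFRB* (-0.091), *LUM* (-0.051) and *VCAM1* (-0.053) had the smallest p among them. Below the 25th percentile of mean level lay 3 of the 7 leukocyte markers and 4 of the 7 fibroblast and endothelial markers. All of these values came without a detection call, so a summed level does not show that such cells were present. None of these markers passed the threshold in limma, with 1 leukocyte and 1 fibroblast and endothelial marker (*CD72* and *ICAM2*) at an unadjusted p under 0.05, and their part in the hydrolase values was not tested. RefSeq places the readthrough gene RPL36A-HNRNPH2 over *GLA* and *TMPPE* over *GLB1*, and whether the probes also bind those transcripts was not determined.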

How the data were processed

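Total RNA was extracted with Trizol and made into biotin-labelled cRNA as Affymetrix prescribes, per the labels' protocols. The values deposited by the authors are log2 expression levels from RMA, per the submitters' processing notes, with no version or probe set definition stated in the labels. RMA makes array distributions alike and shrinks changes of dim probe sets. Accessions were matched without version to RefSeq symbols (GRCh38), naming 1043 of 1259 probe sets (927 genes); the 9 hydrolases and the gene lists were chosen with earlier results of these data known.

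F3 was compared with C2 over all 1259 probe sets in limma 3.58.1 (R 4.3.3; lmFit, eBayes), with Benjamini-Hochberg adjustment and a threshold of 0.05; every p is from this fit unless stated. The gene named most like a hydrolase and the 4 smallest p per list followed a written rule; some results under that rule are not reported here, and a gene with several probe sets was represented by the one with the highest mean. Across probe sets, array deviations from the population mean correlated between arrays of equal number with r = 0.52, 0.18 and 0.26, each over 0.1. Between arrays of unequal number r ran from -0.38 to 0.15. Deviations from a mean cancel over the arrays of a population, so positive r at equal numbers pulls down r at unequal ones. The contrast between equal and unequal numbers is thus partly built in. The 0.15, for C2 replicate 2 with F3 replicate 3, was also over 0.1 and close to the 0.18 of number 2. Titles of equal number share a suffix of unstated meaning. The numbering was therefore treated as a possible pairing, and a fit with the replicate block was run beside the unpaired one. The fit was tested on simulated data for F3 against C2 (1259 probe sets, 200 changed): it found 95.3% of changes of 1.4-fold, 99.6% of those of 2-fold, and 4.68% of its calls were false. The simulated noise was independent between arrays and 200 probe sets changed, so these shares need not hold for the measured arrays. On those, *IGF2R*, 1.38-fold lower in F3, did not pass (limma adjusted p = 0.358). Other scalings, variance models, filters and left-out arrays were tried as alternatives.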

Additional observations from a re-analysis of the deposited data

How the results depend on the processing

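The count of hydrolases past the threshold was 0 in every alternative run: the replicate block, median centring, quantile normalization, without dim probe sets (which drops *GALC*), robust eBayes with a trend on intensity, weighting of arrays, each array left out, both arrays of number 2 left out, without probe sets ending in _x_at, averaging probe sets within genes, and an adjusted p under 0.10. Over all probe sets the count was 1, 2 with the replicate block, 2 at an adjusted p under 0.10, and 0 to 2 with single arrays left out. The median change of the hydrolases was -0.11, ran from -0.10 to -0.037 with single arrays left out, and moved to -0.021 without both arrays of number 2. Of 134 changes of single hydrolases under an alternative, 130 kept their direction and their side of the threshold. The other 4 turned direction, with *GAA* at -0.043 without C2 replicate 1, -0.012 without C2 replicate 3 and -0.023 without F3 replicate 2, and *HEXA* at -0.0078 without F3 replicate 3; the cause was not tested. Among the 130, no turn was possible with the replicate block, robust eBayes with a trend, the filters of probe sets or averaging within genes. Those alternatives left each change as it was, so the count of 130 overstates how far direction was tried. With single arrays left out, *GAA* ran from -0.043 to 0.18 and *HEXA* from -0.0078 to 0.078. The replicate block changed no call among the hydrolases. With 3 arrays a population, changes inside the intervals given, up to 1.33-fold, were not resolved.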
